A study of Mus musculus with 6 samples.

Results

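Transcripts of 9 lymphocyte marker genes were followed in RNA from microglia isolated after acute ischemic stroke (AIS). The genes were Cd3d, Cd3e and Cd3g, which encode chains of the CD3 complex, the coreceptors Cd4 and Cd8a, the kinase gene Lck, the adhesion receptor gene Cd2, the B cell receptor gene Cd79a and the granule gene Nkg7. Every non-control probe whose accession mapped to one of these symbols was taken, whatever its signal, which gave 14 of 56605 probes and 9 of 23462 named genes. Of the 9 genes, 4 had 1 probe and 5 had 2 probes.

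The arrays came from 3 control and 3 mPGC-1α samples, 1 single-colour Agilent array each, and asked which transcripts differ when microglia are meant to overexpress PGC-1α, a coactivator of mitochondrial genes. Control mice were PGC-1α f/f littermates, which carried a loxP-flanked PGC-1α allele with an eGFP gene and had no Cre. The mPGC-1α mice carried the same allele together with a tamoxifen-inducible Cre recombinase expressed from Cx3cr1, which is active in microglia and also in other mononuclear phagocytes. Both groups had a C57BL/6 background, were labelled male and 10 weeks old, had been through transient occlusion of the middle cerebral artery, and had received tamoxifen beforehand. Microglia were obtained by Percoll centrifugation and magnetic selection for P2RY12, a surface receptor of microglia. The time after occlusion and the number of mice behind each sample were not given for the arrays in the sources used here, so the p-values below measure the spread between samples only.

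T cells recognise antigen through a receptor whose signal is carried by the CD3 chains, with CD4 or CD8 as coreceptor and LCK as the first kinase of the cascade. B cells signal through CD79A beside their surface immunoglobulin, and cytotoxic T and natural killer (NK) cells store NKG7 in their granules. The healthy brain holds few lymphocytes, and after a stroke they enter from the blood and its border tissues in small numbers. In bulk RNA, fewer cells of a type and less RNA per cell cannot be told apart.

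Levels are given as log2 of the processed spot signal minus the 75th percentile of the same array, so that a difference of 1 between arrays is a 2-fold change. Levels are compared between arrays for one probe at a time, since probes differ in how brightly they bind.

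Some features of the 6 arrays bear on every value. The signal was well above background on 83.5% to 86.5% of spots for the 4 arrays of the first slide (replicates 1 and 2) and on 71% to 73.5% for the pair on the second slide (replicate 3), and 4931 spots were marked as outliers on array mPGC-1α 3 against 549 to 3010 elsewhere. P2ry12 and Tmem119, which define microglia, were above background on all 6 arrays, with levels of 3.94 to 4.29 and of 5.15 to 5.52 on the arrays without an outlier mark. Control 2 stood apart from the other 5 arrays in sex-linked transcripts, and it was the other 5 that went against the male label. Xist, which is transcribed from an inactive X chromosome, was at -4.83 there and between -0.57 and -0.11 on the other arrays, and Ddx3y, a gene of the Y chromosome, was above background only there. Ppargc1a itself was at -0.71 ± 0.29 in the control and -1.02 ± 0.14 in the mPGC-1α arrays (SD, n = 3 each), a difference of -0.31 (limma adjusted p = 0.798), so the arrays do not show the labelled overexpression in this probe. Mean levels in mPGC-1α exceeded those in control for 13 of 14 neuron, 10 of 10 oligodendrocyte and 9 of 9 astrocyte markers tested, with median differences of 0.86, 0.74 and 0.67 and 0 genes called. Linear levels, in multiples of the 75th percentile, were summed over the 14, 8 and 9 of these genes with values on all 6 arrays. The sums ran from 43.8 to 70.7, 9.45 to 17.3 and 10.7 to 16.1 in the control arrays. In the mPGC-1α arrays they ran from 69.8 to 82.9, 19.4 to 32.1 and 17.1 to 55.9. Counts and sums take the brightest probe of each gene. The part of these cells in the values below was not tested.

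Lymphocyte transcripts were measurable in this preparation. Of the 14 probes, 13 were well above background on all 6 arrays, against 67.9% of all 56605 probes. The exception was the dimmer Cd8a probe, which was above background on 5 arrays and missed it on mPGC-1α 3. Its processed signal was higher there (29.2) than on mPGC-1α 1 and 2 (12.9 and 11.0), where it passed. The lowest level of any probe above background was -4.96 on mPGC-1α 3, against -6.55 and -6.32 on mPGC-1α 1 and 2.

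No lymphocyte marker passed the test between the groups. None of the 14 probes passed an adjusted p of 0.05 (limma, Benjamini-Hochberg over 40745 tested probes), and the background was the same, with 0% of tested probes called. At an unadjusted p under 0.05 there was 1 probe of 14, against 7.17% of all tested probes. Of the 14 probes, 1 had groups without overlap, with the lower levels in mPGC-1α. Over all probes with 6 values, 6.8% lay higher and 4.66% lower in mPGC-1α without overlap. Taking the brightest probe of each gene, 5 genes were higher and 4 lower in mPGC-1α, with a median difference of 0.12, and the median over all tested probes was 0.08. Over all 14 probes the split was 6 higher and 8 lower, and averaging each gene's probes turned the median difference to -0.13. For 8 of the 14 probes the 95% interval of the difference stayed within a 2-fold change in either direction.

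Taken by replicate number, 4 of the 14 probes were lower in mPGC-1α in all 3 pairs and 0 were higher in all 3, where 13.7% and 18.2% of all probes with 6 values did so. Nkg7 differed by -0.60, -0.13 and -0.94 in pairs 1, 2 and 3, and the dimmer Cd8a probe by -1.63, -1.01 and -0.36. The dimmer Cd3e probe differed by -0.33, -0.15 and -0.38 and the brighter Cd3d probe by -0.02, -0.20 and -0.09. With the replicate block in limma the adjusted p was 0.342 for Nkg7 and 0.347 for the dimmer Cd8a probe. None of the 14 probes was called in that fit, against 1 of 40745 tested probes.

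**Figure D1:**
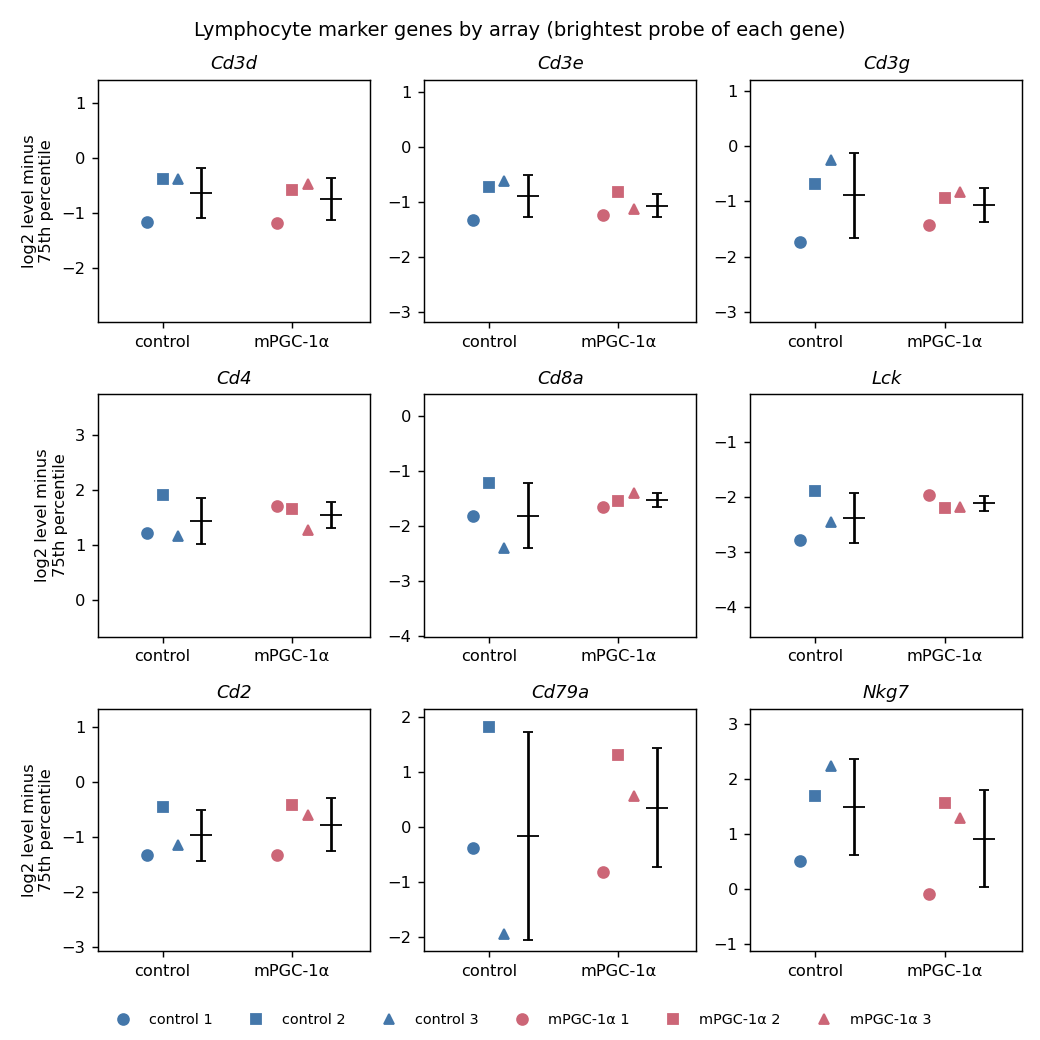
Level of each of the 9 lymphocyte marker genes on the 6 arrays (brightest probe, log2 signal minus the array's 75th percentile), with circles, squares and triangles for replicates 1, 2 and 3 and black bars for the mean and SD of each group (n = 3). All panels span the same number of log2 units, and the groups overlap in each of them, with the widest scatter for Cd79a (SD 1.41 over the 6 arrays).

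**Figure D2:**
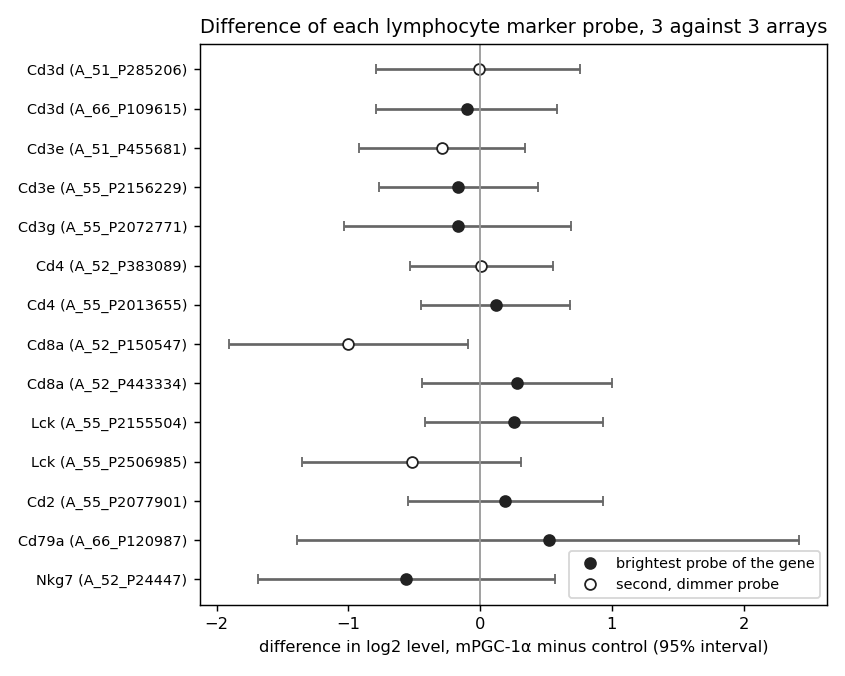
Difference in log2 level, mPGC-1α minus control, for the 14 probes, with 95% intervals from limma; filled points are the brightest probe of each gene and open points a second, dimmer probe. The interval crosses 0 for each probe except the dimmer Cd8a probe (-1.91 to -0.09), and it is widest for Cd79a (-1.39 to 2.42).

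The CD3 chains lie together on chromosome 9, and their promoters are shown because their levels varied together over the arrays. RefSeq starts of Cd3g and Cd3d lie 1355 bases apart on opposite strands, and that of Cd3e lies 27825 bases from the start of Cd3d. The promoter of Cd79a is shown beside them because this gene varied most. Each sequence is the 250 bases before the RefSeq start in build GRCm38.p6, 5′ to 3′ on the strand of the gene, with capitals for matches to AGGAAG, the core of Ets family sites, on either strand.
Cd3g (chr9:44980432-44980681, minus strand): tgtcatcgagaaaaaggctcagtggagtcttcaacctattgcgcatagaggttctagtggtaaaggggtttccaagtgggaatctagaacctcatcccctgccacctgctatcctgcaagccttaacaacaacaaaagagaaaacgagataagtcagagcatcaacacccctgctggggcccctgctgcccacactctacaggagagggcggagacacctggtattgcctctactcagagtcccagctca
Cd3d (chr9:44981536-44981785, plus strand): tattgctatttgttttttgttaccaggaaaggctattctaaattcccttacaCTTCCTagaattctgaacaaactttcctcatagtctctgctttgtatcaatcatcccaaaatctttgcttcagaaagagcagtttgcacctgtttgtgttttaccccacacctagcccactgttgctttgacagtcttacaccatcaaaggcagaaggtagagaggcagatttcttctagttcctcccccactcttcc
Cd3e (chr9:45009612-45009861, minus strand): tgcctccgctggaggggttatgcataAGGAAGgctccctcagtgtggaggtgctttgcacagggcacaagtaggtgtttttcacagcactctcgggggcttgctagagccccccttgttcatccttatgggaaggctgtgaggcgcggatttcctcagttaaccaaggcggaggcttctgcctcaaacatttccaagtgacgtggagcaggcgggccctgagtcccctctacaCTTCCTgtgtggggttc
Cd79a (chr7:24897247-24897496, plus strand): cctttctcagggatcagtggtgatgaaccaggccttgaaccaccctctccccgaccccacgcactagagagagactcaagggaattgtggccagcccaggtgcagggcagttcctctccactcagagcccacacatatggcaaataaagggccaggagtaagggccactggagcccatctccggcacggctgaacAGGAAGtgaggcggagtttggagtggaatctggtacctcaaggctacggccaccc

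The letters of 4 motifs were searched on both strands of these windows. AGGAAG was found once in the Cd3d, in the Cd79a and in the Nkg7 window, in 2 places in the Cd3e window, in both Lck windows and nowhere in the Cd3g or Cd8a window, and 29.5% of 32851 mouse promoter windows of this length held it. TGTGGT, the core of Runx sites, was in none of the CD3 windows and was found in 1 Lck window and in that of Nkg7, against 14.0% of all windows. ATGCAAAT, the octamer bound by Oct factors in immunoglobulin genes (1.6% of all windows), and CCCNNGGG, the paired half-sites of EBF (11.8%), were in none of the 8 windows found for 7 of the 9 genes. The matches describe these letters only, and no matches of different motifs overlapped.

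T cells need the 3 CD3 chains to bring their receptor to the surface. The brighter Cd3d probe was at -1.16, -0.38 and -0.38 on control arrays 1, 2 and 3 and at -1.18, -0.58 and -0.47 on mPGC-1α arrays 1, 2 and 3. Replicate 1 was the low array in both groups, and the groups overlapped. The groups differed by -0.10 (standard error, SE, 0.30; adjusted p = 0.953, and exact permutation p = 0.5 over 20 assignments, two-sided, for which 0.1 is the smallest value). The second Cd3d probe gave -1.64, -0.37 and -0.79 in control and -1.26, -0.65 and -0.93 in mPGC-1α, again with both replicate 1 arrays lowest, and a difference of -0.01 (SE 0.34).

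Cd3e, the chain against which many T cell antibodies are raised, was at -1.33, -0.72 and -0.62 in the control arrays and at -1.23, -0.82 and -1.13 in the mPGC-1α arrays on its brighter probe. Control 1 was lowest and control 3 highest, so that the control values enclosed all 3 mPGC-1α values. The difference was -0.17 (SE 0.27, limma adjusted p = 0.907). The dimmer Cd3e probe was the one whose groups did not overlap, at -3.52, -3.73 and -3.48 in control and -3.85, -3.88 and -3.86 in mPGC-1α. The 6 values spanned 1.33-fold in all, and the difference of -0.29 (SE 0.28) had an adjusted p of 0.832 in limma. After quantile normalization, and in the deposited series matrix, its groups overlapped. The probes for Cd3e followed each other little over the 6 arrays (r = 0.152), whereas those for Cd3d did (r = 0.868).

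Cd3g was at -1.74, -0.69 and -0.24 in the control arrays and at -1.42, -0.93 and -0.83 in the mPGC-1α arrays. Both replicate 1 arrays were again the lowest, control 3 was the highest, and the groups overlapped. The difference was -0.17 (SE 0.38, limma adjusted p = 0.939), within an interval of -1.03 to 0.69.

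Over the 6 arrays the brightest probes of the 3 chains gave Pearson's r of 0.84 (Cd3d and Cd3e), 0.92 (Cd3d and Cd3g) and 0.90 (Cd3e and Cd3g), and Spearman's rho of 0.87, 0.93 and 0.94. After the 2 arrays farthest from the median of the first gene were left out, r was 0.43, 0.76 and 0.74, so that part of the relation rested on those arrays, control 1 among them in each case. All points share the array, its slide and its scaling. Lat, an adaptor of T cell receptor signalling, followed Cd3d (r = 0.90, rho = 0.87, and 0.77 without control 1 and mPGC-1α 1). The 23 T cell companion genes had r of -0.446 to 0.971 with Cd3d, and for 4 of them r was over 0.85.

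**Figure D3:**
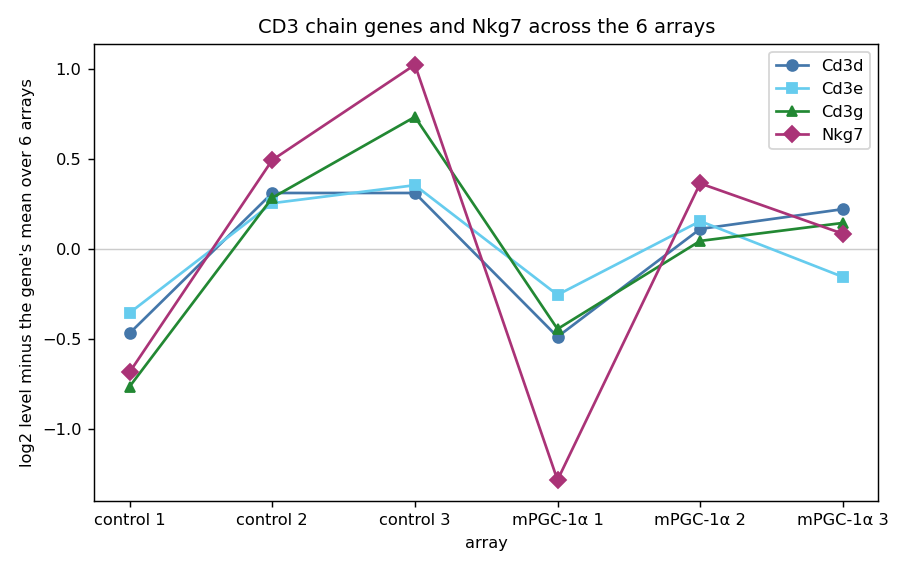
Log2 level of Cd3d, Cd3e, Cd3g and Nkg7 on each array minus the gene's mean over the 6 arrays (brightest probe). All 4 genes lie below their mean on control 1 and mPGC-1α 1 and above it on control 2 and control 3, and Nkg7 has the widest span (4.97-fold).

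The coreceptor Cd4, which marks helper T cells and is also transcribed by some macrophages, was at 1.22, 1.9 and 1.16 in control and at 1.71, 1.64 and 1.27 in mPGC-1α on its brighter probe. Control 2 was highest and control 3 lowest, with all mPGC-1α values between them. The difference was 0.12 (SE 0.25, limma adjusted p = 0.937). The second probe was at -0.58, 0.08 and -0.46 in control and at -0.29, -0.27 and -0.35 in mPGC-1α, with a difference of 0.01 (SE 0.24). Control 2 was again the highest array, and control 1 was the lowest. The probes for Cd4 followed each other over the arrays (r = 0.875).

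Cd8a, the coreceptor of cytotoxic T cells, gave opposite directions on its 2 probes, which carry different RefSeq transcript records. The brighter probe was at -1.81, -1.22 and -2.40 in control and at -1.65, -1.55 and -1.41 in mPGC-1α, a difference of 0.28 (SE 0.32, limma adjusted p = 0.865). The control arrays held both the highest and the lowest value. The dimmer probe was at -4.25, -4.99 and -4.57 in control and at -5.88, -6.00 and -4.93 in mPGC-1α, the last of them not well above background. Its difference of -1.0 (SE 0.41) had an unadjusted p of 0.035, an adjusted p of 0.686 in limma and an exact permutation p of 0.2, and the groups overlapped through control 2 and mPGC-1α 3. Within the first slide the difference was -1.32 and within the second -0.36. The probes for Cd8a gave r = -0.376 over the 6 arrays.

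Lck, the kinase that phosphorylates the CD3 chains, also split by probe. The brighter probe was at -2.79, -1.89 and -2.45 in control and at -1.97, -2.21 and -2.19 in mPGC-1α, with the highest and lowest values both in control. The difference was 0.26 (SE 0.30, limma adjusted p = 0.868). The dimmer probe was at -3.24, -3.94 and -2.62 in control and at -3.89, -3.73 and -3.73 in mPGC-1α, a difference of -0.52 (SE 0.37, limma adjusted p = 0.778). Control 2 was the highest array on one probe and the lowest on the other, and r between them was -0.722.

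Cd2, an adhesion receptor of T and NK cells, was at -1.32, -0.45 and -1.14 in control and at -1.33, -0.42 and -0.60 in mPGC-1α. The replicate 1 arrays were lowest and the replicate 2 arrays highest in both groups. The difference was 0.19 (SE 0.33, limma adjusted p = 0.917).

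Cd79a, which B cells need to signal through their receptor, varied more from array to array than any of the other 8 genes. It was at -0.39, 1.82 and -1.94 on control arrays 1, 2 and 3 and at -0.82, 1.30 and 0.56 on mPGC-1α arrays 1, 2 and 3. In processed signal this ran from 253 on control 3 to 2507 on control 2. The extremes of 13.6-fold were therefore both control arrays, and all 3 mPGC-1α values lay between them. Only 1.53% of tested probes with 6 values had an SD over the 6 arrays as large as that of Cd79a (1.41, against a median of 0.35). The means were -0.17 ± 1.89 and 0.35 ± 1.08 (SD, n = 3 each), and the difference of 0.52 (SE 0.85) had an interval of -1.39 to 2.42, a limma adjusted p of 0.91 and an exact permutation p of 0.8. The interval leaves room for changes of over 2-fold in either direction. Within the first slide the difference was -0.48, and within the second, with 1 array per group, 2.51. Without control 2 it was 1.51, and without control 3 it was -0.37.

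From high to low, the arrays ran control 2, mPGC-1α 2, mPGC-1α 3, control 1, mPGC-1α 1 and control 3 for Cd79a, and other B cell genes followed this course. On the brightest probe, 10 of the 12 B cell companion genes with 6 values were highest on control 2. Of the 12 genes, 8 had r over 0.85 with Cd79a, all 8 were highest on control 2 and 7 were lowest on control 3. As r was taken over the same 6 arrays, these shared extremes partly follow from the choice of the 8. The spans of these 8 genes over the arrays were 2.63-fold to 32.4-fold. The widest, of Vpreb3 (32.4-fold) and Fcer2a (30.4-fold), rest on control 3 values that were not well above background. Spib, a transcription factor of B cells, chosen as an example after its values were seen, was at -2.57, 0.20 and -4.58 in control and at -2.94, -1.14 and -1.59 in mPGC-1α. This is the order of arrays seen for Cd79a (rho = 1.0), and r was 0.99 both over the 6 arrays and without control 2 and control 3.

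The 4 B cell companions with lower r spanned 1.31-fold to 3.54-fold on their brightest probe. Of them 2, Pax5 (r = 0.782) and Blk (r = 0.355), named after their values were seen, were also highest on control 2. Cd22, an inhibitory receptor of B cells that microglia also transcribe, was at 3.74 to 3.81 in control and 3.75 to 4.13 in mPGC-1α. The adaptor gene Blnk and the receptor gene Cd72 differed between groups by 0.17 and 0.05 on the arrays without an outlier mark. Over the 15 tested B cell genes, 7 were higher and 8 lower in mPGC-1α, 0 were called, and 1 (Blk, a kinase of B cells) was lower without overlap. Control 2, where Cd79a and its 8 companions were highest, was also the array that stood apart in Xist and Ddx3y.

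**Figure D4:**
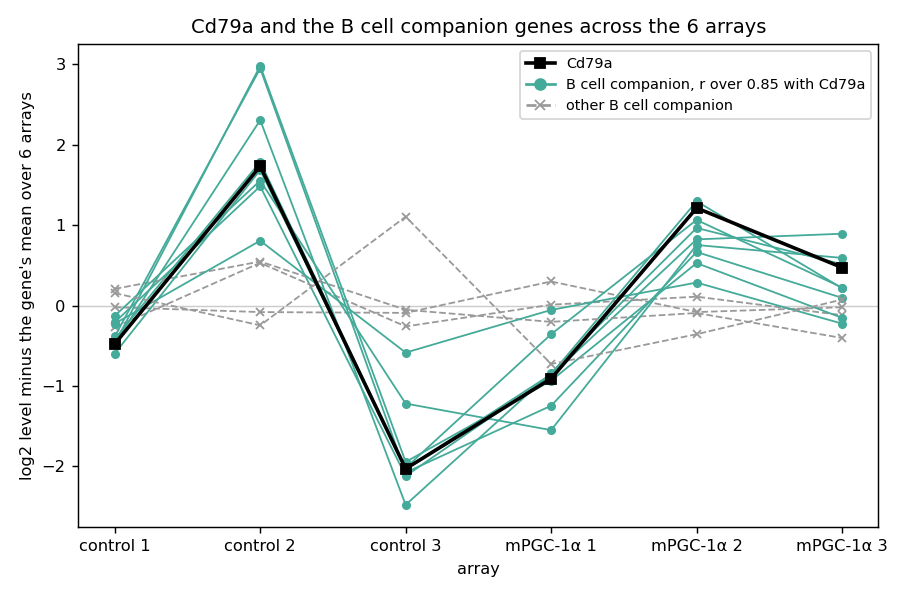
Log2 level of Cd79a (black) and of the 12 B cell companion genes with 6 values on each array, minus the gene's mean over the 6 arrays; green lines are the 8 companions with r over 0.85 with Cd79a and grey dashed lines the other 4. Cd79a and the green genes peak on control 2, and Cd79a and 7 of the 8 have their minimum on control 3.

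Nkg7, a membrane protein of cytotoxic granules, was at 0.51, 1.69 and 2.22 in control and at -0.09, 1.56 and 1.28 in mPGC-1α. Replicate 1 was the lowest array in both groups, and control 3 was the highest. The difference was -0.56 (SE 0.50, limma adjusted p = 0.821, exact permutation p = 0.5), with an interval of -1.69 to 0.57. It was -0.06 without mPGC-1α 1, -0.19 without control 3, -0.88 without mPGC-1α 2 and -1.04 without control 1. The span of 4.97-fold was the second widest of the 9 genes, and 7.27% of tested probes with 6 values had an SD as large.

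The course of Nkg7 over the arrays was that of the CD3 chains (r = 0.93, 0.89 and 0.90 with Cd3d, Cd3e and Cd3g, and 0.55, 0.83 and 0.96 without the 2 farthest arrays) and not that of Cd79a (r = 0.13, rho = 0.14). Both genes were high on control 2, and they parted on control 3, where Cd79a was lowest and Nkg7 highest. Without these arrays r was 0.98. Markers of other cells varied with Nkg7 to different degrees. The 4 neutrophil markers with 6 values had r of 0.728 to 0.90 with it, and all 8 neutrophil markers tested were above background on every array. The summed linear level of the 4 with 6 values was 26.9 to 45.6 in control and 12.9 to 50 in mPGC-1α. It was lowest on mPGC-1α 1, where Nkg7 was lowest too. The 14 NK and cytotoxic companions with 6 values had r of -0.489 to 0.847, the highest for the receptor genes Klrk1 (0.847) and Klrd1 (0.743) and the granzyme gene Gzmb (0.708), all named after their values were seen and all lowest on mPGC-1α 1. In all, 5 of these 14 genes were lowest on mPGC-1α 1, while 8 were lowest on control 1. Among monocyte and macrophage markers with 6 values, 6 of 8 were lowest on mPGC-1α 1. The summed level of these 8 monocyte and macrophage markers was 37 to 51 in control and 27.9 to 56.7 in mPGC-1α, again lowest on mPGC-1α 1. The part of any of these cells in the Nkg7 values was not tested.

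Other lymphocyte genes were counted by list, on the brightest tested probe of each. Of 25 T cell companion genes 23 were tested, of which 15 were higher and 8 lower in mPGC-1α, with a median difference of 0.08 and 0 called. Sh2d2a, an adaptor of T cells, was at 0.35, 0.24 and 0.35 in control and at 0.58, 0.73 and 0.39 in mPGC-1α. It was the only one of these genes without overlap on its brightest probe (limma adjusted p = 0.796). A dimmer Cd247 probe was lower without overlap, at -3.22, -3.59 and -2.94 in control and -3.87, -3.95 and -4.21 in mPGC-1α. Its difference was -0.76 (limma adjusted p = 0.686), against 0.02 on the brightest Cd247 probe. Lat was at 0.49 to 1.36 in control and 0.70 to 0.98 in mPGC-1α, and Il7r, the receptor chain for interleukin 7, was at -0.52 to 0.64 and at -0.95 to -0.06. The spans of the T cell companions were 1.41-fold to 3.14-fold, with a median SD of 0.36 over the 6 arrays, close to the 0.35 of all tested probes and below the 1.25 of the B cell list.

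Of the 15 NK and cytotoxic companions, 8 were higher and 7 lower in mPGC-1α, with a median difference of 0.07, 0 called and 0 without overlap. Ccl5, a chemokine of activated lymphocytes, was at 1.58, 2.45 and 2.48 in control and at 3.22, 2.31 and 2.52 in mPGC-1α, where mPGC-1α 1 was the highest array. Prf1, the pore-forming protein of granules, differed by 0.09 and Tbx21, a transcription factor of type 1 and NK cells, by 0.19.

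Between genes, Cd79a and Nkg7 stood above the other 7 markers in their spread over the arrays. The other 7 spanned 1.64-fold to 2.84-fold on their brightest probe, and 21.1% to 66% of tested probes varied as much. The 95% intervals of the group difference were narrower for each of these 7 genes than for Cd79a.

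**Figure D5:**
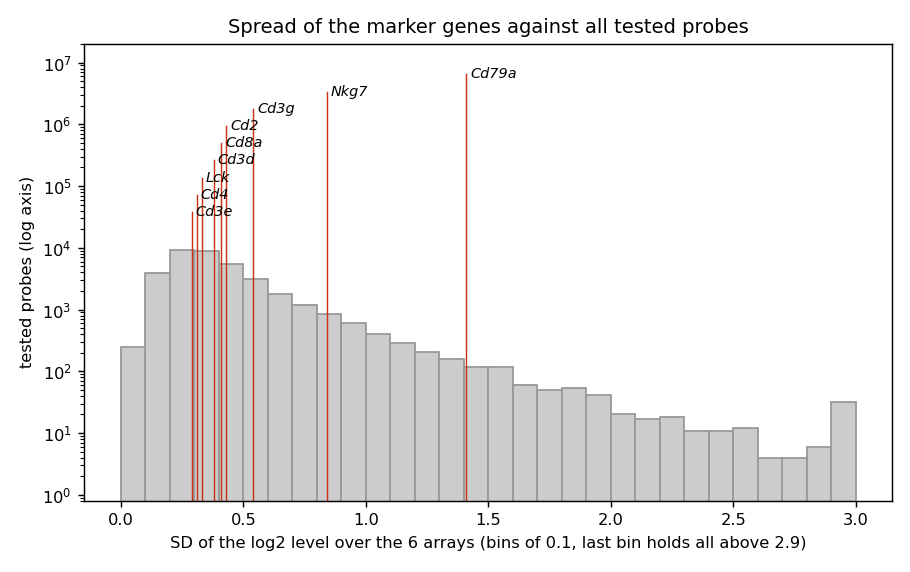
Number of tested probes with 6 values (log axis) by the SD of their log2 level over the 6 arrays, in bins of 0.1, with a red line at the SD of each lymphocyte marker gene (brightest probe; the height of a line carries no value). The SDs of 7 genes lie in the bulk of the distribution, that of Nkg7 is 0.84 and that of Cd79a 1.41.

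The genes whose levels ran most like those of the 8 markers other than Cd79a were on none of the lymphocyte lists. Over 15346 named genes and 6 arrays, the highest r was with Ubxn6 and Echdc2 for Cd3d (0.993 and 0.990), Mprip and Vdr for Cd3e (0.984 and 0.981), and Dock1 and Pradc1 for Cd3g (0.993 and 0.991). It was with Krtap16-1 and Gm34086 for Cd4 (0.999 and 0.997), Cdc23 and Tstd1 for Cd8a (both 0.993), Plin5 and Wnt4 for Lck (0.997 and 0.995), Timm17b and Shtn1 for Cd2 (0.993 and 0.990), and Gprc5c and Eno1 for Nkg7 (both 0.991). With 6 arrays many genes reach such values: 560 genes had r over 0.95 with Cd4 and 21 to 198 with the other 8 members.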

How the data were processed

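RNA from isolated microglia of 3 control and 3 mPGC-1α samples had been hybridised to Agilent mouse arrays, and the genotype label gave each sample its group. Per the file headers, the deposited scanner values are linear intensity from Agilent Feature Extraction 11.5.1.1, background-subtracted within each array. The normalized log2 values of the authors' series matrix (46731 probes) served as an alternative (r of at least 0.999 with the scanner values of the same array). Depth of reading does not apply, and the number of arrays limits the precision.

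The 75th percentile over all 56605 non-control probes of an array was subtracted from its log2 processed signal, spots of a probe were averaged and spots marked as outliers were left out. Taking the percentile over unmarked probes alone lowered it on the second slide (from 893.4 to 631.7 on mPGC-1α 3), so this served as an alternative only. Probes were named through RefSeq (GRCm38.p6) for 33767 probes (59.7%). The array grid was made for another build, so no probe positions are given. Tests took probes with at least 2 values per group that were well above background on each unmarked array of 1 or both groups, which left 40745 probes, 36995 of them with 6 values. Groups were compared with limma 3.58.1 in R 4.3.3 (lmFit, eBayes with trend, two-sided, adjusted p threshold 0.05) and single probes with an exact permutation test. The procedure was tested on simulated data.

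The members and gene lists were chosen with earlier results of these data known. All 9 members were named with every probe, and for each companion list the 3 genes above background on most arrays and then with the highest mean. For likeness, the 2 genes with the highest r were named, except for Cd79a, where the result is not reported here. Xist, Ddx3y, Ppargc1a and microglial markers were named where they bear on the arrays. Alternatives were quantile normalization, normexp (offset 50) with quantile normalization, the series matrix, other filters on dim probes, slide or replicate number as a block, eBayes without trend and leaving out each array. The percentile over unmarked probes and the first slide alone were added after seeing the data. Arrays with the same replicate number deviated together (r = 0.247, 0.224 and 0.171, against -0.337 to 0.0346 for different numbers), so the numbers were taken to pair the arrays, although no label says what they stand for.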

Additional observations from a re-analysis of the deposited data

How the results depend on the processing

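The count of 0 called probes among the 14 held under all 17 alternatives. Over all tested probes, 2102 of 39288 were called without control 2 and 1 of 40745 with the replicate block, against 0 in the main fit. The median difference of the members ran from -0.13 (mean of all probes of a gene) to 0.35 (without control 2). With the replicate block 0 of the 14 probes were called, as in the unblocked fit. The count without overlap does not use a block and so cannot change with it. The count of 1 probe without overlap (dimmer Cd3e) fell to 0 under quantile normalization, normexp with quantile normalization, the authors' series matrix and the percentile over unmarked probes, and was 2 on the first slide alone (25.9% of all probes), the last 2 settings being chosen after seeing the data. Leaving out 1 array gave 1 to 7. It was 7 without control 2 (4 higher, 3 lower, when 44.9% of all probes did not overlap), 5 without control 1 (all lower, of 17.8%) and 2 without mPGC-1α 3 (19.0%). The cause was not tested. The direction of small differences turned. The dimmer Cd3d probe (-0.01) was at 0.02 under both quantile settings and the series matrix, at 0.06 with the unmarked percentile and at 0.05 on the first slide. The first slide alone also gave 0.0 for the brighter Cd3e probe, 0.04 for Cd3g, -0.03 for the dimmer Cd4 probe, -0.08 for the brighter Cd8a probe and -0.48 for Cd79a. Leaving out 1 array gave ranges across 0 of -0.36 to 0.27 and -0.36 to 0.12 for the dimmer and brighter Cd3d probes, -0.60 to 0.16 for Cd3g, -0.12 to 0.21 and -0.02 to 0.35 for the dimmer and brighter Cd4 probes, -0.02 to 0.57 for the brighter Cd8a probe and -0.37 to 1.51 for Cd79a. For Nkg7 it gave -1.04 to -0.06. Dim signal limits the second Cd3e, Cd8a and Lck probes, and the number of arrays limits all others.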
